A study of Rattus norvegicus and Mus musculus with 24 samples.

Results

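The tight junction genes followed here are 10 symbols: TJP1, which encodes ZO-1; YBX3, which encodes ZONAB; OCLN, which encodes occludin; and the claudin genes CLDN1, CLDN2, CLDN3, CLDN4, CLDN7, CLDN10, CLDN16. They were taken by name from the gene tables of both species. The set was chosen with earlier results of these data known. Shares of members called, given below beside those of all symbols, therefore only describe this set. All 10 were found among the 17376 symbols of the mouse table and 8 among the 14931 symbols of the rat table. CLDN2 and CLDN16 were not analysed here in the rats. All 8 rat members passed the filter on low counts.

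Bulk RNA sequencing covered 4 mice labelled CTNS KO and 4 labelled CTNS WT, and 8 rats of each label. *Ctns* encodes cystinosin, the transporter that carries cystine out of the lysosome, and the knockout animals are models of the storage disease cystinosis. The mice were on a C57BL/6 background and the rats on a Sprague-Dawley background, the WT animals being littermate controls. No treatment, age or sex is named in the labels. The study's methods speak of female mice of several ages and of rats of both sexes, and do not tie an age to the sequenced animals. The rat labels carry animal numbers in the ranges 17 to 24 and 25 to 32, each with 4 KO and 4 WT rats. What the ranges stand for is not given, so results are shown for all rats and within each range.

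Tight junctions seal the space between epithelial cells and set which ions and how much water pass between them. Claudins line that path: some form channels and others tighten the barrier, and each nephron segment has its own set. ZO-1 is the cytoplasmic scaffold that ties claudins and occludin to actin. It also holds ZONAB, a Y-box transcription factor, at the junction. ZONAB released from ZO-1 enters the nucleus and favours proliferation over differentiation in epithelial cells. In the proximal tubule, CLDN2 and a form of CLDN10 make the junction leaky, while CLDN3, CLDN4 and CLDN7 are known mainly from distal segments.

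The tissue is named as kidney cortex in both the methods and the labels, while the labels also name proximal tubule cells. Transcripts of other cells were abundant. In the mice, the mean scaled value of UMOD, the thick limb marker uromodulin, was 104, beside 101 for SLC34A1, the phosphate transporter of the proximal tubule. In the rats, UMOD averaged 2556 and SLC34A1 4949 CPM (read counts scaled to a common library size with TMM factors), and PODXL, a podocyte marker, averaged 311 CPM. In such bulk RNA, fewer cells of a type and less RNA per cell cannot be told apart. The mouse libraries held between 19309371 and 44449845 reads each, and those of the rats between 24684097 and 40629873. No library was left out.

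The targeted gene separated the mouse groups, while the rat groups overlapped. A mouse value is the read number scaled so that the 75th percentile of each library is 1, and CTNS stood at 0.342, 0.338, 0.319 and 0.331 in KO mice 3, 5, 6 and 8. It stood at 0.824, 1.03, 0.878 and 0.944 in WT mice 1, 2, 4 and 7, a log2 fold change of -1.43 ± 0.07 (SE). Each KO mouse still had 327 to 556 reads on CTNS. The KO rats had 16.8 to 22.2 CPM with a median of 18.7, and the WT rats 19.2 to 27.8 CPM with a median of 21.99. These ranges overlapped, and the log2 difference of -0.22 ± 0.08 (SE) missed the threshold (edgeR, adjusted p = 0.0511). In rats 17 to 24 the difference was -0.11 ± 0.08 (SE, edgeR, adjusted p = 0.514), and in rats 25 to 32 it was -0.32 ± 0.11 (SE, edgeR, adjusted p = 0.0391), a called fall. The groups overlapped within both ranges, so CTNS did not separate every KO from every WT rat.

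Before any genotype is compared, the members differed widely in level. Per kilobase of exon in WT mice (GENCODE vM21, GRCm38), CLDN2 led with a scaled value of 3.65 ± 0.24 (SD, n = 4), followed by CLDN10 with 1.241 ± 0.251. Both are channel-forming claudins of the proximal tubule, and CLDN10 also has a form in the thick limb. YBX3 followed with 0.320 ± 0.007, TJP1 with 0.284 ± 0.015 and CLDN16, a thick limb claudin needed for magnesium and calcium reabsorption, with 0.264 ± 0.033. CLDN7 stood at 0.222 ± 0.018, OCLN at 0.175 ± 0.023, CLDN4 at 0.154 ± 0.030, CLDN3 at 0.134 ± 0.009 and CLDN1 at 0.111 ± 0.015 per kilobase. The mean ± SD ranges of neighbours overlapped for TJP1 with CLDN16, CLDN16 with CLDN7, OCLN with CLDN4, CLDN4 with CLDN3, and CLDN3 with CLDN1. The other neighbours in this order were apart by more than their spread.

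Several members lie in pairs in the genome. Mouse *Cldn1* spans chr16:26356642-26371841 on the minus strand and *Cldn16* chr16:26463135-26482765 on the plus strand (GRCm38). *Cldn4* spans chr5:134945119-134946934 (minus) and *Cldn3* chr5:134986214-134987472 (plus), where the antisense gene *Wbscr25* overlaps *Cldn3*. *Cldn10* spans chr14:118787908-118875489 (plus) and *Ybx3* chr6:131364855-131388476 (minus). Small annotated genes also lie within the spans of *Tjp1* (*Gm44792*, *Gm44794* and the pseudogene *Gm44795*), *Cldn10* (*n-R5s51*) and *Ybx3* (*Gm22362*). How reads were assigned to overlapping genes is not given in the sources used here, so the mouse values of these 4 members are uncertain to that extent.

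The mouse comparison asks which junction transcripts differ when *Ctns* is lost. CLDN1, a barrier-forming claudin found in the kidney mainly in the epithelium lining Bowman's capsule, was the member that rose. Its scaled values were 0.920, 0.912, 0.857 and 1.07 in KO mice 3, 5, 6 and 8, and 0.461, 0.4926, 0.616 and 0.585 in WT mice 1, 2, 4 and 7. Every KO mouse stood above every WT mouse. The log2 fold change was 0.80 ± 0.11 (SE), or 1.74-fold (limma on log2 of the value plus 0.01, Benjamini-Hochberg adjusted p = 0.0054). CLDN1 was the 1 member of 10 called, and the 1 member whose groups did not overlap. Among all mouse symbols 5.02% were called and 4.03% were called higher, and 7.66% had every KO mouse above every WT mouse.

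CLDN10 had the largest difference downward in the mice and did not pass. Its scaled values were 2.28, 2.50, 2.59 and 2.701 in KO mice 3, 5, 6 and 8, and 4.13, 2.61, 2.95 and 3.17 in WT mice 1, 2, 4 and 7. WT mouse 1 was the highest, and WT mouse 2 lay among the KO values. The log2 fold change was -0.33 ± 0.13 (SE), with a 95% confidence interval of -0.63 to -0.03 (limma, adjusted p = 0.217). It was called by DESeq2 on the whole reads recovered from the table (log2 fold change -0.37, adjusted p = 0.0234) and not by edgeR on the same reads (-0.37, adjusted p = 0.0962).

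The genes of the scaffold and of its partner did not pass in the mice. TJP1 was 2.23, 2.39, 2.39 and 2.42 in the KO mice and 2.09, 2.37, 2.16 and 2.24 in the WT mice, with a log2 fold change of 0.09 and a 95% confidence interval of -0.03 to 0.21. YBX3 was 0.953, 0.935, 0.971 and 0.979 in the KO mice and 1.0006, 0.957, 1.004 and 0.972 in the WT mice. Its log2 fold change was -0.04 (interval -0.12 to 0.05), so a change in either direction beyond 0.12 lay outside the interval. OCLN differed by 0.04 (interval -0.16 to 0.24). The groups overlapped for all of these genes.

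The remaining claudins also missed the threshold in the mice. CLDN2, the main cation and water channel between proximal tubule cells, had scaled values of 11.2 to 13.8 in KO and 11.1 to 12.9 in WT mice, a log2 fold change of 0.06 (interval -0.13 to 0.24). CLDN4 ranged from 0.273 to 0.360 in KO and 0.224 to 0.352 in WT mice, a log2 fold change of 0.22 (interval -0.10 to 0.54). Its values are not whole reads in 3 of the 8 mice, so more than 1 gene may stand under that symbol. CLDN3 differed by 0.11 (interval -0.10 to 0.32), CLDN7 by 0.02 (interval -0.24 to 0.28) and CLDN16 by -0.09 (interval -0.31 to 0.14). The median log2 fold change over the 10 members was 0.05, beside 0.00 over all mouse symbols.

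**Figure D1:**
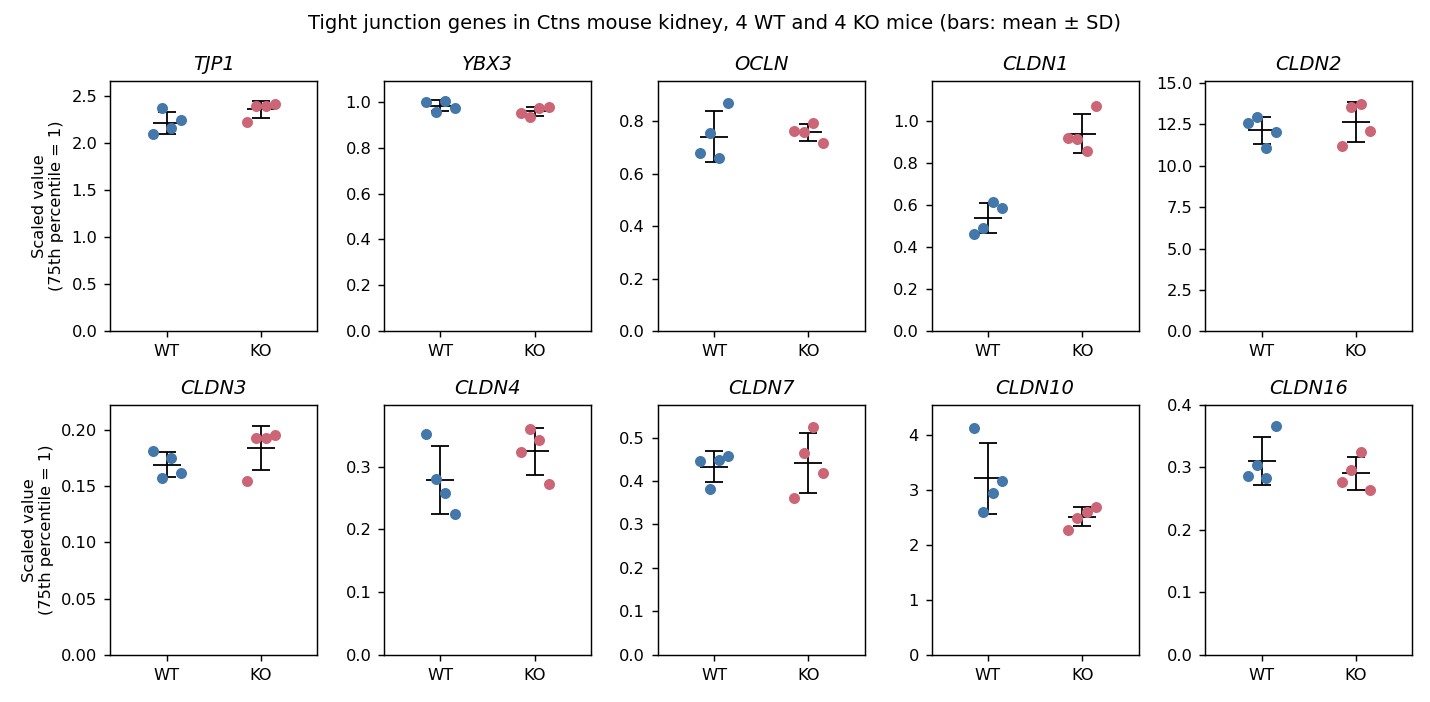
Scaled value (75th percentile of the library = 1, y axis from 0) of each tight junction gene in 4 WT (blue) and 4 KO (red) mice; points are mice and bars mean ± SD. CLDN1 lies between 0.857 and 1.07 in the KO mice, above all WT mice, while the other 9 panels show groups that overlap.

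The rat comparison gave a broader picture. In all rats together, the claudins CLDN1, CLDN3, CLDN4 and CLDN7 and the ZONAB gene YBX3 rose in the KO group, CLDN10 fell, and TJP1 and OCLN did not pass. In all, 6 of 8 members were called, 5 higher and 1 lower, where 27.5% of the 11584 symbols tested were called, 15.2% higher and 12.3% lower. That split of 1760 higher and 1420 lower symbols became 2644 and 687 with library totals in place of TMM, and the members called were still 5 higher and 1 lower. The median log2 fold change over the 8 members was 0.41, beside -0.02 over all symbols. The groups of 8 did not overlap for CLDN4 and CLDN10, 2 of 8 members, beside 5.84% of all symbols. The call on each of the 6 genes was also made in all 16 fits that left out 1 rat.

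CLDN4, a barrier-forming claudin of the collecting duct, ranged from 14.7 to 23.9 CPM in the WT rats with a median of 20.8 CPM. In the KO rats it ranged from 27.2 to 47.6 CPM with a median of 35.2 CPM. All 8 KO rats were above all 8 WT rats, a log2 fold change of 0.82 ± 0.13 (SE), or 1.77-fold (edgeR, adjusted p = 0.000281). CLDN7, which is found along the distal nephron and collecting duct, went from a median of 17.3 CPM (15.02 to 20.8) to 23.9 CPM (18.5 to 31.4). Its log2 fold change was 0.44 ± 0.09 (SE, edgeR, adjusted p = 0.00223), and 7 of 8 KO rats were above all WT rats. CLDN3, a barrier claudin, was much scarcer, with medians of 3.94 CPM (2.998 to 5.27) in WT and 5.22 CPM (4.29 to 9.40) in KO rats. The groups overlapped, with KO rat 28 far above the rest, and the log2 fold change was 0.53 ± 0.16 (SE, edgeR, adjusted p = 0.0208).

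CLDN1 had the largest log2 fold change of the rat members, as in the mice. It ranged from 12.3 to 36.9 CPM in the WT rats with a median of 19.9 CPM, and from 25.2 to 51.2 CPM in the KO rats with a median of 41.4 CPM. The ranges overlapped, with 5 of 8 KO rats above all WT rats. The log2 fold change was 0.86 ± 0.22 (SE), or 1.81-fold (edgeR, adjusted p = 0.00808).

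CLDN10 moved the other way. The KO rats held 110 to 136 CPM with a median of 131 CPM, and the WT rats 144 to 229 CPM with a median of 182 CPM. All 8 KO rats were below all 8 WT rats, with a log2 fold change of -0.50 ± 0.08 (SE), or 0.709 of the WT level (edgeR, adjusted p = 0.000326). The ratio of CLDN4 to CLDN10 within a rat was 0.0804 to 0.160 in the WT group and 0.204 to 0.399 in the KO group. In the mice this ratio was 0.0707 to 0.108 in WT and 0.101 to 0.144 in KO animals, which overlapped. The ratio of CLDN1 to CLDN10 was 0.112 to 0.209 in WT and 0.330 to 0.403 in KO mice, with no overlap, and 0.0536 to 0.205 in WT and 0.193 to 0.395 in KO rats. In the rats, CLDN4 and CLDN10 each separated the groups, in opposite directions, so their ratio had to separate them and adds no further evidence. These ratios were given no test of their own, and they hold read numbers not corrected for gene length.

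**Figure D2:**
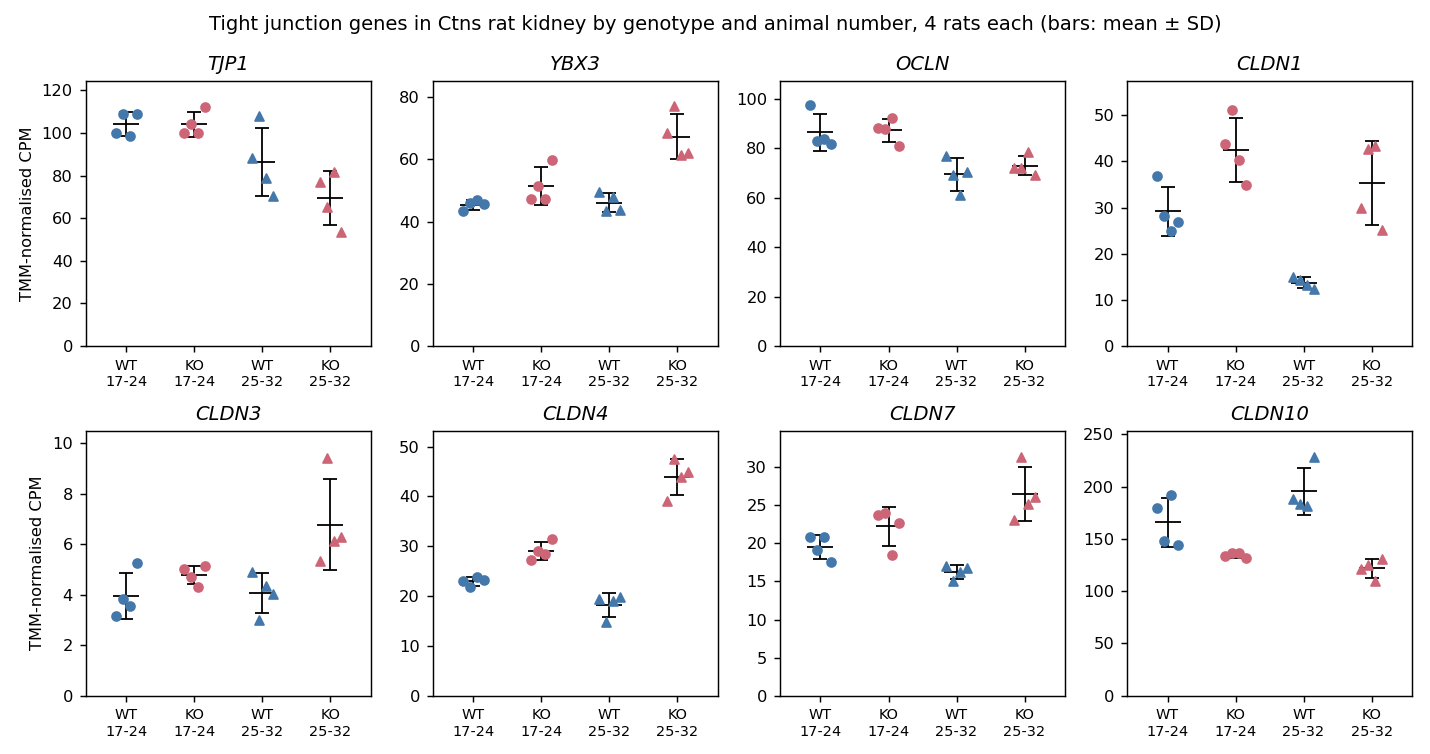
Level in CPM (TMM-normalised, y axis from 0) of each tight junction gene in 4 rats per genotype (WT blue, KO red) and animal number range (circles 17 to 24, triangles 25 to 32); bars are mean ± SD. CLDN4 and CLDN10 separate KO from WT in both ranges, whereas CLDN1 is lowest in WT rats 25 to 32 (12.3 to 14.99 CPM).

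YBX3 rose in the rats, whereas TJP1, the gene of its scaffold, did not pass. YBX3 ranged from 43.3 to 49.5 CPM in WT rats with a median of 45.8 CPM, and from 47.2 to 77.2 CPM in KO rats with a median of 60.7 CPM. Of the KO rats, 6 of 8 were above all WT rats, and the log2 fold change was 0.38 ± 0.09 (SE), or 1.30-fold (edgeR, adjusted p = 0.00465). TJP1 ranged from 70.6 to 109 CPM in WT rats with a median of 99.4 CPM, and from 53.5 to 112 CPM in KO rats with a median of 90.9 CPM. Its log2 fold change of -0.13 had a 95% confidence interval of -0.43 to 0.16 (edgeR, adjusted p = 0.503). OCLN, whose product is a membrane protein of the junction strand, showed 61.0 to 97.5 CPM in WT and 69.3 to 92.4 CPM in KO rats, with a log2 fold change of 0.04 (interval -0.14 to 0.22). In the rat table OCLN and MARVELD2, the gene of tricellulin, hold the same value in every rat, so these 2 genes could not be told apart.

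Y-box proteins such as ZONAB are known to bind CCAAT boxes, so the promoters of the claudins that differed in the rats are shown with this motif. The 250 bases before the annotated start were read from RefSeq for rat build GRCr8, where 8 of the 10 members had an entry; *Cldn2* and *Cldn4* had none. The windows lie at chr11:87926126-87926375 (plus strand) for *Cldn1*, chr12:27346548-27346797 (minus) for *Cldn3*, chr10:55188420-55188669 (plus) for *Cldn7*, and chr15:102269608-102269857 (plus) for *Cldn10*. Capitals mark CCAAT read on either strand, 5′ to 3′.
Cldn1: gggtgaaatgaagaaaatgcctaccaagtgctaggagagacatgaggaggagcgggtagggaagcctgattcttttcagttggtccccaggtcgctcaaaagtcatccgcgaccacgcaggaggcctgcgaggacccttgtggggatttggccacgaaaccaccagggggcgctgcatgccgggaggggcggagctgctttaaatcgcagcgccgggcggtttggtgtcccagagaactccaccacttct
Cldn3: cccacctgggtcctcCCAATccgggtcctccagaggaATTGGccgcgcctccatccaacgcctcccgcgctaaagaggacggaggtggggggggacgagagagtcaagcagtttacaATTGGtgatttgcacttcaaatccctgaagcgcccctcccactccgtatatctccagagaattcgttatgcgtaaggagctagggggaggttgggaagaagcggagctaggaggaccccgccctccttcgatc
Cldn7: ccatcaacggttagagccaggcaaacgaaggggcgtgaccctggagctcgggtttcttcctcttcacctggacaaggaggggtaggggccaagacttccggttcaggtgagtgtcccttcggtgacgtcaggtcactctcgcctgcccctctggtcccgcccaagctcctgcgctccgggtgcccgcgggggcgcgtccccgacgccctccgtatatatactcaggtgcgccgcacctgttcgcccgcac
Cldn10: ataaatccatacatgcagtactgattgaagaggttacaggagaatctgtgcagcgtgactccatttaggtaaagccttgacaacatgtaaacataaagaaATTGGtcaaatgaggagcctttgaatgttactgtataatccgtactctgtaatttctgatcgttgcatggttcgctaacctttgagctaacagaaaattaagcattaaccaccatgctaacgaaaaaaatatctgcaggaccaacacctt
CCAAT was found 3 times in the *Cldn3* window, 235, 213 and 133 bases before the start, and 1 time in the *Cldn10* window, 150 bases before it. The windows of *Cldn1*, *Cldn7*, *Tjp1*, *Ybx3*, *Ocln* and *Cldn16* held none. Of 33469 rat promoter windows of this length, 34% held a match, so the motif is common. The E-box CAGGTG, on either strand, occurred 4 times in the *Cldn7* window, 2 times in that of *Ocln* and 1 time in that of *Cldn3*, beside 15.9% of all windows with a match. RefSeq gives 1 start per gene here, and genes such as *Cldn10* have more. A match describes these letters and does not show that a factor binds there.

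Within the animal number ranges, more members were called in rats 25 to 32 than in rats 17 to 24. The within-range fits share their animals with the fit of all rats, so they are not independent of it. Among rats 17 to 24, 2 of 8 members were called, both higher, where 7.26% of 11610 symbols were called and 5.07% were higher. In rats 25 to 32, 6 of 8 were called, 5 higher and 1 lower, where 43.8% of 11633 symbols were called, 21.8% higher and 22.1% lower. With library totals the 2534 higher and 2566 lower symbols of the second range became 4252 and 1135. The groups of 4 did not overlap for 3 of 8 members in the first range, beside 13.7% of all symbols, and for 6 of 8 in the second, beside 40.3%.

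CLDN4 was called in both ranges. For rats 17 to 24, the WT animals 17, 19, 21 and 23 held 22.99, 21.8, 23.9 and 23.1 CPM, and the KO animals 18, 20, 22 and 24 held 27.2, 29.1, 28.4 and 31.4 CPM. The log2 fold change there was 0.35 ± 0.06 (SE, edgeR, adjusted p = 0.0059). In rats 25 to 32 the WT animals 25, 27, 29 and 31 held 19.4, 14.7, 19.1 and 19.8 CPM, and the KO animals 26, 28, 30 and 32 held 39.0, 47.6, 43.8 and 44.9 CPM. The second range therefore had both the lower WT and the higher KO levels, with a log2 fold change of 1.27 ± 0.10 (SE, edgeR, adjusted p = 1.13e-05).

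The WT level of CLDN1 was not the same in the 2 ranges. In rats 17 to 24 it held 36.9, 28.2, 24.9 and 26.9 CPM in WT animals 17, 19, 21 and 23, and 43.7, 51.2, 40.2 and 34.9 CPM in KO animals 18, 20, 22 and 24. In rats 25 to 32 it held 14.99, 14.2, 13.3 and 12.3 CPM in WT animals 25, 27, 29 and 31, and 29.9, 42.6, 43.4 and 25.2 CPM in KO animals 26, 28, 30 and 32. Thus the KO ranges of the 2 sets overlapped, while every WT rat of the second set was below every WT rat of the first. The log2 fold change was 0.55 ± 0.14 (SE) in rats 17 to 24 (edgeR, adjusted p = 0.0496) and 1.37 ± 0.17 (SE) in rats 25 to 32 (edgeR, adjusted p = 0.000142). The call in rats 17 to 24 was lost in 6 of 8 fits that left out 1 rat (adjusted p from 0.0069 to 0.131), without the filter (0.0645) and with the size factors of DESeq2 (0.0525).

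CLDN10 was lower in every KO rat than in every WT rat within each range. In rats 17 to 24 the WT animals held 180, 148, 192 and 144 CPM and the KO animals 133, 136, 136 and 132 CPM, a log2 fold change of -0.30 ± 0.08 (SE) that missed the threshold (edgeR, adjusted p = 0.0549). It was called without the filter on low counts (-0.30, adjusted p = 0.0496) and in 2 of 8 fits that left out 1 rat, those without WT rat 19 (-0.35, adjusted p = 0.0326) and WT rat 23 (-0.36, adjusted p = 0.0147). In rats 25 to 32 the WT animals held 188, 183, 182 and 229 CPM and the KO animals 122, 125, 110 and 131 CPM, a log2 fold change of -0.68 ± 0.08 (SE, edgeR, adjusted p = 0.000133). The KO values were closely grouped in both ranges, and the spread lay mostly in the WT rats.

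YBX3 held 43.3 to 46.8 CPM in WT and 47.2 to 59.9 CPM in KO rats 17 to 24, which did not overlap but did not pass (log2 fold change 0.19, interval 0.03 to 0.35, edgeR, adjusted p = 0.163). In rats 25 to 32 it held 49.5, 43.3, 48.0 and 43.6 CPM in WT and 68.5, 77.2, 61.5 and 62.1 CPM in KO animals, a log2 fold change of 0.55 ± 0.09 (SE, edgeR, adjusted p = 0.000581). The WT level of YBX3 was thus alike in both ranges, at means of 45.4 and 46.1 CPM. CLDN7 rose by 0.70 ± 0.10 (SE) and CLDN3 by 0.74 ± 0.20 (SE) on the log2 scale in rats 25 to 32 (edgeR, adjusted p = 0.000287 and 0.0142). Rats 17 to 24 differed in them by 0.19 (interval 0.00 to 0.39) and 0.28 (interval -0.07 to 0.63), neither past the threshold.

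TJP1 showed no call in either range. It held 98.8 to 109 CPM in WT and 99.9 to 112 CPM in KO rats 17 to 24, a log2 fold change of 0.01 (interval -0.12 to 0.13). In rats 25 to 32 it held 88.2, 108, 78.8 and 70.6 CPM in WT and 77.2, 65.5, 81.9 and 53.5 CPM in KO animals, a log2 fold change of -0.31 (interval -0.65 to 0.03, edgeR, adjusted p = 0.127). The WT rats of the second range were widely spread, and the groups overlapped. OCLN differed by 0.02 (interval -0.12 to 0.17) and 0.07 (interval -0.10 to 0.25) in the 2 ranges.

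The difference between the ranges was tested as an interaction of genotype with number range. It was called for CLDN4 (difference of log2 fold changes 0.92 ± 0.12 SE, edgeR, adjusted p = 0.000265), CLDN7 (0.51 ± 0.14, adjusted p = 0.0224), CLDN1 (0.82 ± 0.24, adjusted p = 0.0317) and YBX3 (0.36 ± 0.12, adjusted p = 0.0486). These 4 of 8 members all had the larger rise in rats 25 to 32, where 14.7% of 11839 symbols were called and 7.10% were higher. With library totals the 841 higher and 904 lower symbols became 2309 and 347, and the same 4 members were called. The calls on 3 of them depended on single rats: leaving out 1 rat at a time ended the call in 12 of 16 fits for YBX3, 6 of 16 for CLDN1 and 1 of 16 for CLDN7, the last being the fit without KO rat 28. That for CLDN4 was made in all 16. Without the filter on low counts the call on YBX3 was also lost (edgeR, adjusted p = 0.0563). CLDN10 (-0.38, edgeR, adjusted p = 0.0553), CLDN3 (0.47), TJP1 (-0.32) and OCLN (0.05) did not pass.

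The WT rats alone also differed between the ranges. CLDN1 was lower in WT rats 25 to 32 than in WT rats 17 to 24 by a log2 difference of -1.11 ± 0.12 (SE, edgeR, adjusted p = 0.000192). CLDN4 (-0.36, adjusted p = 0.0256), CLDN7 (-0.29, adjusted p = 0.0316) and OCLN (-0.34, adjusted p = 0.0178) were lower too. In all 4 of 8 members were called, all lower, where 18.3% of 11504 symbols were called and 9.54% were lower. With library totals the 1011 higher and 1097 lower symbols became 622 and 2034. Leaving out 1 rat at a time ended the call in 5 of 8 fits for CLDN7, 4 of 8 for CLDN4 and 1 of 8 for OCLN, and in none of 8 for CLDN1.

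**Figure D3:**
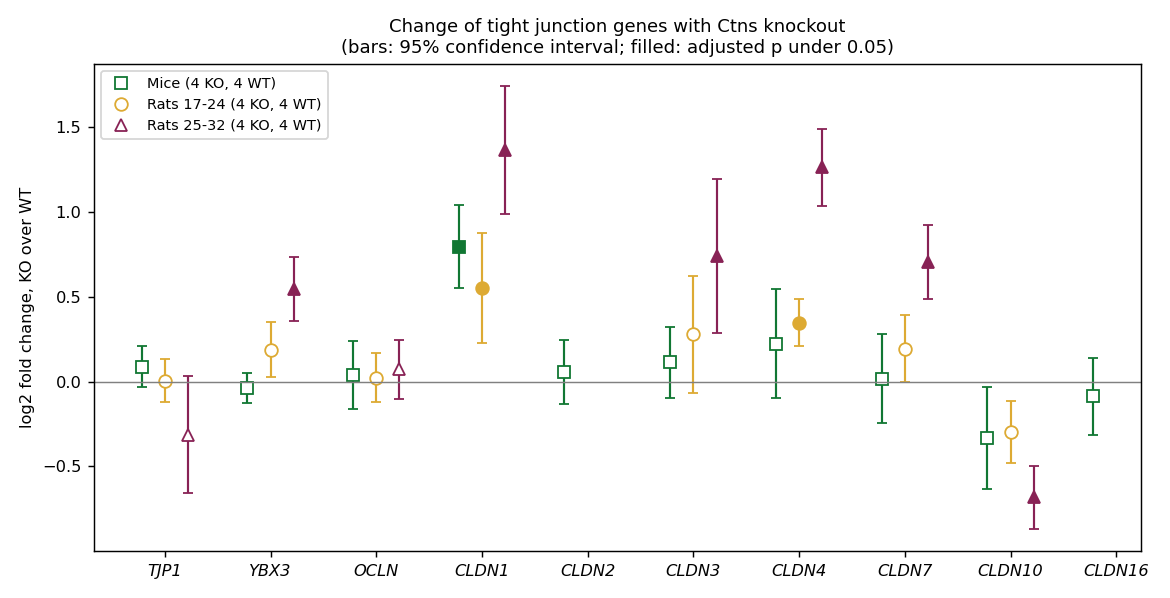
Log2 fold change of KO over WT (y axis) with its 95% confidence interval for each tight junction gene in mice (squares), rats 17 to 24 (circles) and rats 25 to 32 (triangles), each 4 KO and 4 WT animals; filled symbols have an adjusted p under 0.05. CLDN1 is filled in all 3 sets (0.80, 0.55 and 1.37), and CLDN10 is below 0 in all 3 but filled only in rats 25 to 32 (-0.68).

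Mice and rats were compared by a test of the difference between their changes, over 11216 symbols tested in both. None of the 8 shared members was called (limma), where 2.18% of symbols were. At an unadjusted p under 0.05 there were 3, namely YBX3 (rat minus mouse 0.43 ± 0.13 SE, adjusted p = 0.0922), CLDN4 (0.60 ± 0.22, adjusted p = 0.151) and CLDN7 (0.45 ± 0.16, adjusted p = 0.143). With edgeR on the reads of both species 0 members were called as well. Neither fit held a term for the rat number range. Differences between the ranges therefore went into the spread, which can widen the intervals and hide a difference between species. For CLDN1 the difference was 0.16 with a 95% confidence interval of -0.53 to 0.84, and for CLDN10 it was -0.12 (interval -0.42 to 0.19).

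The other genes of the junction were taken from lists of 14 further claudins, 29 other junction proteins and 11 partners, targets and proliferation genes linked to ZONAB. Among the further claudins, 1 of 14 was called in the mice and 5 of 10 tested in the rats, 4 higher and 1 lower. Over all symbols 5.02% were called in the mice, and 15.2% higher and 12.3% lower in the rats. The mouse gene was CLDN15, a channel-forming claudin, at 0.299 to 0.342 in KO and 0.203 to 0.260 in WT mice (log2 fold change 0.47 ± 0.09 SE, limma, adjusted p = 0.0195). In the rats CLDN15 held 1.92 to 3.47 CPM in KO and 2.49 to 3.57 CPM in WT animals and did not pass (-0.20, edgeR, adjusted p = 0.257). The 4 that rose in the rats were all scarce. A gene near the filter on low counts can enter the test through the group where it is high, as CLDN11 and CLDN23 could here. For that reason the rat count and median of this list cannot be weighed against all symbols. CLDN11 averaged 0.369 CPM in WT and 0.907 CPM in KO rats (log2 fold change 1.29 ± 0.27 SE, adjusted p = 0.00236), and CLDN23 0.278 and 0.608 CPM (1.14 ± 0.39, adjusted p = 0.0375). CLDN9 averaged 1.72 and 2.50 CPM (0.54 ± 0.18, adjusted p = 0.0377) and CLDN6 3.65 and 4.95 CPM (0.44 ± 0.14, adjusted p = 0.0317). CLDN12, a widely expressed claudin, was lower, at 34.5 to 49.0 CPM in KO and 48.0 to 58.2 CPM in WT rats (-0.29 ± 0.07, adjusted p = 0.0036). The median log2 fold change of this list was 0.01 in the mice and 0.21 in the rats.

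Of the other junction proteins, 1 of 28 tested was called in the mice and 6 of 23 in the rats, 2 higher and 4 lower. These shares are near the 5.02% of mouse and 27.5% of rat symbols called in all, so the counts do not set the list apart. In the mice CXADR, an adhesion molecule of the junction, stood at 0.909 to 0.953 in KO and 0.698 to 0.835 in WT animals (log2 fold change 0.31 ± 0.06 SE, limma, adjusted p = 0.0241). In the rats LSR, which recruits tricellulin to the points where 3 cells meet, averaged 81.7 ± 15.6 CPM in KO and 59.4 ± 5.27 CPM in WT animals (SD, n = 8; log2 fold change 0.46, edgeR, adjusted p = 0.0027). JAM3, a junctional adhesion molecule, was higher by 0.16 (adjusted p = 0.0363). The 4 that fell in the rats were MPDZ (-0.57, adjusted p = 0.0192), MARVELD3 (-0.42, adjusted p = 0.0194), PATJ (-0.32, adjusted p = 0.00368) and PARD6B (-0.18, adjusted p = 0.0276). MPDZ, PATJ and PARD6B encode scaffold and polarity proteins under the membrane, and MARVELD3 a relative of occludin. PATJ held 85.7 to 121 CPM in KO and 122 to 147 CPM in WT rats. The list's median log2 fold change was -0.03 in the mice and -0.01 in the rats.

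Among the 11 genes linked to ZONAB, 4 were higher and 0 lower in the mice, and likewise in the rats. Over all symbols 4.03% were called higher in the mice and 15.2% in the rats. The list was chosen with earlier results known and holds general proliferation genes such as MKI67 and CCNA2. The study had also reported more Ccna2 and Pcna protein in the kidneys of knockout mice. For these reasons the counts of this list cannot be weighed against all symbols. In rats 25 to 32, 6 of the 11 were called higher and 2 lower, beside 21.8% and 22.1% of all symbols. Those lower were ERBB2 (-0.57, edgeR, adjusted p = 0.0140) and HSPA4 (-0.20, edgeR, adjusted p = 0.0182). ERBB2 did not pass in the mice (-0.14) or in all rats (-0.37). CDK4 did not pass in the mice (0.19, limma, adjusted p = 0.0858) or in all rats (0.15, edgeR, adjusted p = 0.160). CCNA2, the cyclin of S phase, averaged 0.172 ± 0.051 in KO and 0.0280 ± 0.0114 in WT mice (SD, n = 4; log2 fold change 2.27, limma, adjusted p = 0.00325). In the rats it averaged 6.84 ± 1.96 CPM in KO and 1.14 ± 0.24 CPM in WT animals (SD, n = 8; 2.58, edgeR, adjusted p = 1.73e-07). MKI67, a marker of cycling cells, rose by 2.45 in the mice and 2.18 in the rats on the log2 scale (adjusted p = 0.00176 and 5.64e-08). PCNA, a replication factor that ZONAB is known to activate, rose by 0.23 in the mice and 0.36 in the rats (adjusted p = 0.0415 and 0.00147). CCND1, the cyclin D1 gene and another known ZONAB target, was higher in the mice, at 8.34 to 9.95 against 4.99 to 6.06 (0.67, limma, adjusted p = 0.0036). In the rats it ranged from 243 to 340 CPM in KO and 156 to 330 CPM in WT animals and did not pass (0.26, edgeR, adjusted p = 0.169). YBX1, another Y-box gene, rose by 0.17 in the rats (edgeR, adjusted p = 0.00964) and stood at -0.13 in the mice (limma, adjusted p = 0.203). It was the 1 gene of this list called for a difference between species (0.34 ± 0.08 SE, limma, adjusted p = 0.0191).

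**Figure D4:**
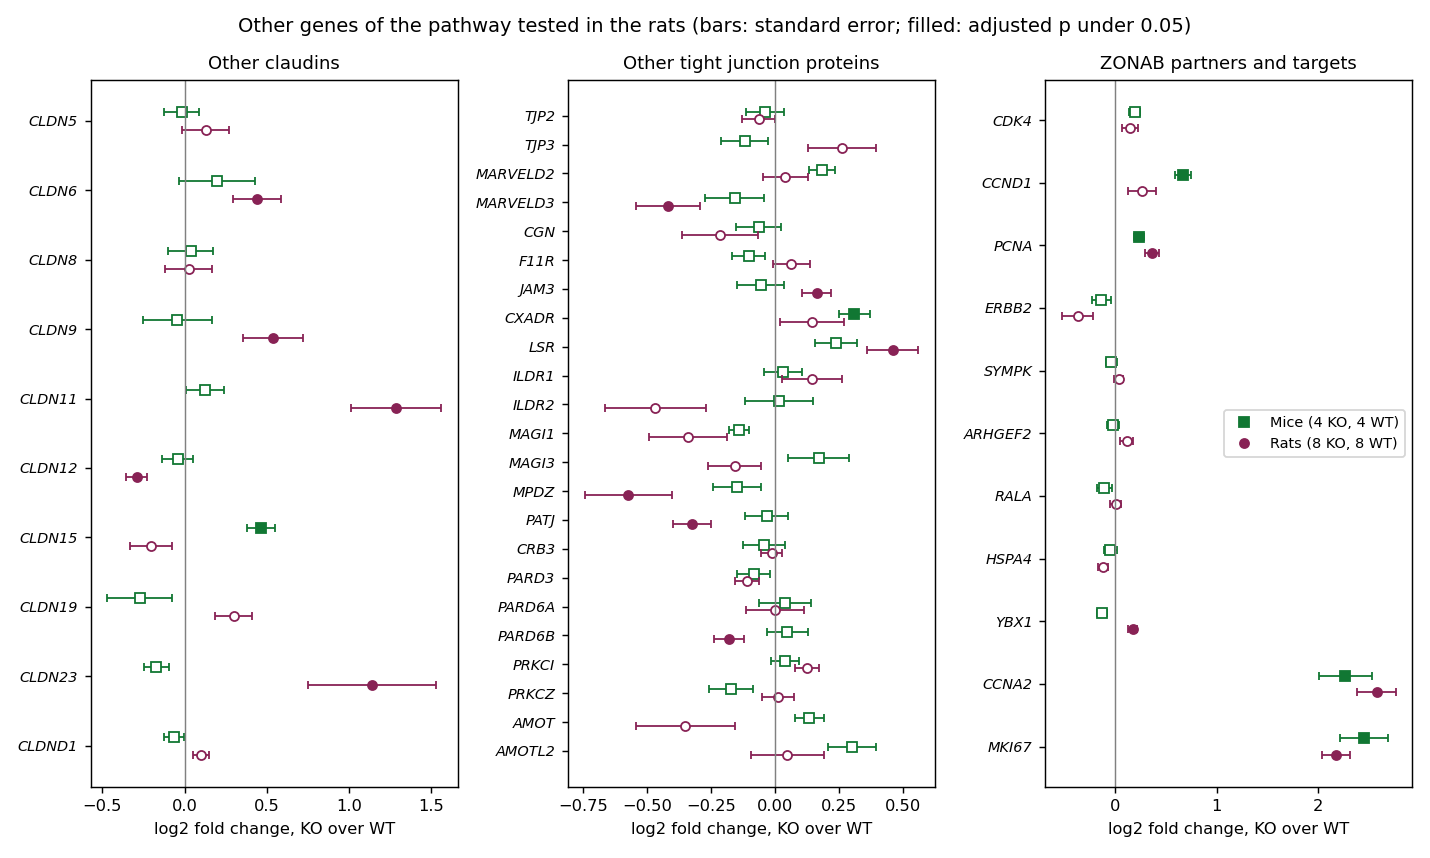
Log2 fold change of KO over WT (x axis) with its standard error for further claudins, other junction proteins and genes linked to ZONAB that were tested in the rats, in 4 against 4 mice (squares) and 8 against 8 rats (circles); filled symbols have an adjusted p under 0.05. CCNA2 and MKI67 lie above 2 in both species, while most junction proteins lie within 0.50 of 0.

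Markers of other cell types differed between the genotypes along with the members in the rats. Over the 10 of 12 proximal tubule markers in the rat table, the summed level was 9431 to 12724 CPM in KO and 13911 to 19583 CPM in WT rats. It did not overlap between the groups, as was the case for CLDN10. The tubular injury markers summed to 904 to 5320 CPM in KO and 202 to 353 CPM in WT rats (5 of 6 markers), and were highest in KO rats 25 to 32, at 3466 to 5320 CPM. SPP1 had the highest mean of these markers, 1398 CPM over all rats, so this sum rested mainly on 1 gene. SLC34A1 had the highest mean of the proximal tubule markers, 4949 CPM. Macrophage markers (6 of 6) summed to 177 to 480 CPM in KO and 100 to 196 CPM in WT rats, and fibroblast markers (4 of 4) to 210 to 404 CPM and 163 to 179 CPM. The part of these shifts in the results on CLDN1, CLDN3, CLDN4, CLDN7, CLDN10 and YBX3 was not tested.

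Of the segments in which CLDN3, CLDN4 and CLDN7 are usually found, the collecting duct had sums that overlapped. Those of the thick limb and distal convoluted tubule did not overlap in rats 25 to 32. In that range 40.3% of all symbols had groups that did not overlap, 21.8% were called higher and 22.1% lower. With so few markers per segment, the counts below do not set these segments apart from all symbols. The 7 of 10 collecting duct markers in the rat table summed to 853 to 1132 CPM in KO and 795 to 1193 CPM in WT rats, so these groups overlapped almost fully, also within rats 25 to 32 (853 to 955 against 795 to 965 CPM). Single markers of the list differed there in both directions, with 2 of 7 called higher and 1 lower. SCNN1B and SCNN1G, subunits of the epithelial sodium channel, rose by 0.57 and 0.37 on the log2 scale (edgeR, adjusted p = 3.28e-05 and 0.000636), to 106 to 112 CPM from 70.8 to 79.1 CPM and to 86.5 to 97.2 CPM from 67.4 to 72.5 CPM. AQP3, a water channel of the collecting duct, was lower, at 132 to 168 against 199 to 244 CPM (-0.54, edgeR, adjusted p = 0.000968). AQP2 was not analysed here in the rats. Thick limb markers (4 of 7) summed to 3041 to 3920 CPM in KO and 2282 to 2871 CPM in WT rats 25 to 32, and distal convoluted tubule markers (4 of 5, of which PVALB had no read in the WT rats) to 981 to 1083 CPM and 672 to 850 CPM. Most of each sum came from 1 gene, UMOD (mean 2556 CPM over all rats) and CALB1 (881 CPM). Of 4 thick limb markers tested in rats 25 to 32, 2 were called higher and no other had a positive sign. Of 3 distal convoluted tubule markers tested there, 2 were called higher and no other had a positive sign. In rats 17 to 24 the thick limb and distal convoluted tubule sums overlapped between the genotypes. Thin limb markers (3 of 4) summed to 617 to 792 CPM in KO and 518 to 659 CPM in WT rats 25 to 32, which overlapped, and 2 of the 3 were called higher there, AKR1B1 by 0.94 and BCL2A1 by 1.36 on the log2 scale (edgeR, adjusted p = 1.25e-05 and 0.000111). The part of these markers in the rise of CLDN3, CLDN4 and CLDN7 was not tested. Podocyte markers (6 of 6) summed to 547 to 1009 CPM in KO and 674 to 1120 CPM in WT rats, and endothelial markers (5 of 6) to 288 to 442 CPM and 358 to 468 CPM. Within rats 25 to 32 the endothelial sums did not overlap, at 288 to 323 CPM in KO and 358 to 384 CPM in WT animals. The podocyte sums there overlapped slightly (547 to 676 against 674 to 809 CPM). Both sums overlapped in rats 17 to 24.

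In the mice several marker sums differed between the genotypes too. Proximal tubule markers (11 of 12) summed to scaled values of 285 to 306 in KO and 304 to 396 in WT mice, which overlapped slightly. The tubular injury markers (6 of 6) summed to 62.0 to 81.4 in KO and 27.5 to 41.3 in WT mice. SPP1 had the highest mean of them, 51.6 over all mice, so this sum too rested mainly on 1 gene. Macrophage markers (6 of 6) summed to 4.10 to 4.76 in KO and 2.74 to 2.90 in WT mice, and fibroblast markers (4 of 4) to 4.06 to 4.46 and 2.11 to 2.703, neither with overlap. Endothelial markers (6 of 6) were lower, at 8.56 to 9.27 in KO and 9.57 to 10.9 in WT mice. Collecting duct markers (10 of 10) summed to 23.03 to 26.3 in KO and 21.3 to 24.4 in WT mice, which overlapped, as did thick limb markers (6 of 7), at 207 to 227 and 191 to 238. The part of these sums in the rise of CLDN1 was not tested.

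The genes whose level followed each called member most closely from rat to rat were found after the mean of each genotype and number range was taken off, among 10811 symbols over 16 rats. They were GSN for CLDN7 (Pearson r = 0.93, Spearman rho = 0.92), P3H3 for CLDN4 (0.93 and 0.89), TGFBI for CLDN3 (0.91 and 0.89), ELL3 for CLDN10 (0.90 and 0.90), HPS6 for YBX3 (0.82 and 0.72) and GBP6 for CLDN1 (0.81 and 0.71). Each is the highest of many values, and the points share their libraries. Among the members themselves, the highest and lowest correlations on the same scale were those of CLDN3 with CLDN4 (r = 0.64) and of TJP1 with CLDN10 (r = -0.64).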

How the data were processed

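For the mice, the authors deposited a normalised signal per symbol, which the values show to be reads plus 0.5 over the library's 75th percentile plus 0.5. For the rats, the authors deposited estimated counts, which are reads plus 1/6; this was taken off and the result rounded to whole numbers. Reads came out whole, within 0.01, for 99.0% of mouse and 97.7% of rat values. The submitters' processing notes name bcl2fastq 2.20, STAR 2.7.3, DESeq2 1.24.0, R 3.6.1 and builds mm10 and rn5; the counting and annotation are not given in the sources used here.

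In R 4.3.3, mouse log2(value + 0.01) was tested with limma 3.58.1 (trend, robust, no filter), and rat counts with edgeR 4.0.16 (quasi-likelihood, TMM, filterByExpr). The species difference used limma on scaled values. P-values were adjusted over all symbols (Benjamini-Hochberg, threshold 0.05). DESeq2 1.42.0, other pseudocounts, filters and scalings, the rat number range as a covariate, and leaving out each animal were alternatives. The scripts were tested on simulated data. Depth covers counting error only; the number of animals limits group differences. Labels give 1 library per animal.

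Members and lists were chosen with earlier results of these data known. Beside the members, the largest called changes of each pathway list, up to 4 per direction, the marker sums, the highest gene of a marker list and the gene most alike each called member were named. MARVELD2, CDK4, ERBB2, HSPA4, PVALB, AQP2, AQP3, SCNN1B, SCNN1G, AKR1B1 and BCL2A1 were named after their values were seen.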

Additional observations from a re-analysis of the deposited data

Results flagged for a closer look

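A single animal stood apart from its group by the gap to its nearest neighbour, as a share of the group's range (Dixon's criterion), for 4 of 36 gene and group combinations, where chance flags about 1 in 20. TJP1 was lowest in KO mouse 3, at a scaled value of 2.23 against 2.39 to 2.42 in the other KO mice. CLDN3 was lowest in the same mouse, at 0.155 against 0.193 to 0.196. CLDN7 was lowest in WT mouse 2, at 0.382 against 0.446 to 0.458. CLDN3 was highest in KO rat 28, at 9.40 CPM against 4.29 to 6.27 CPM in the other KO rats. Without KO rat 28 the call on CLDN3 over all rats was still made, with a log2 fold change of 0.39.

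The change with genotype differed between rats 25 to 32 and rats 17 to 24 for 4 members in the edgeR interaction test. The differences of the log2 fold changes were 0.92 for CLDN4, 0.82 for CLDN1, 0.51 for CLDN7 and 0.36 for YBX3, each with the larger rise in rats 25 to 32. What sets the number ranges apart is not given in the labels, so age, sex, treatment, housing, handling and sequencing cannot be told apart.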

How the results depend on the processing

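No paired analysis was possible because the labels give no litter or pair for the KO and WT animals. The rat number range could be fitted as a covariate, which called 4443 symbols rather than 3180 and 6 of 8 members, each with the direction and call it had without. Of 210 values of single members under other settings, 201 kept their direction and their side of the threshold, and of 720 values with 1 animal left out, 657 did.

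In the mice, DESeq2 on the recovered reads called 1518 symbols (930 higher, 588 lower) where limma called 872 (701 and 171), and 2 members rather than 1; edgeR on the same reads called 1198. Leaving out 1 mouse gave 473 to 895 symbols, with 473 without KO mouse 6, 492 without KO mouse 5 and 556 without WT mouse 4. In rats 17 to 24, DESeq2's size factors left 1 member called, and leaving out 1 rat gave 504 to 930 symbols and 1 to 2 members, the low counts coming without KO rat 24 (504), KO rat 20 (549) and WT rat 21 (522); the call on CLDN1 was lost without any 1 of WT rats 19, 21 and 23 and KO rats 18, 20 and 22. For the interaction, library totals without TMM, an alternative chosen after seeing the data, called 2656 symbols (2309 higher, 347 lower) rather than 1745 (841 and 904), and leaving out 1 rat gave 1010 to 2392 symbols and 1 to 4 members, lowest without KO rat 28 (1010 and 1), then KO rat 22 (1135) and WT rat 27 (1163). For WT rats between the ranges these were 1370 to 2313 symbols and 1 to 4 members, lowest without WT rat 29 (1370 and 1). For the species difference they were 124 to 355 symbols and 0 to 1 members, lowest without KO mouse 6 (124), and the 1 member was YBX3 without KO rat 18 or 22. Library totals also moved the median of all symbols to 0.15 in rats 25 to 32, 0.14 in the interaction and -0.12 between WT rats.

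Directions reversed only for values near 0 that no setting called. With DESeq2's size factors TJP1 in rats 17 to 24 became -3.06e-04 and YBX3 between WT rats 0.0098, which was 0.0015 without a filter; CLDN3 between WT rats became -0.10 with library totals. With 1 animal left out, the log2 values ran from -0.0128 to 0.12 for OCLN and -0.0668 to 0.108 for CLDN7 in the mice, -0.0319 to 0.0286 for TJP1 and -0.0068 to 0.0827 for OCLN in rats 17 to 24, -0.0113 to 0.11 for OCLN in the interaction, -0.0985 to 0.18 for CLDN3 and -0.0390 to 0.0352 for YBX3 between WT rats, and -0.0374 to 0.0949 for OCLN in the species difference. The cause of these shifts was not tested.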
